A study of Homo sapiens with 9 samples.

Results

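On their brightest probe sets, the genes described here had their lowest array signal in U87 cells transfected with miR-376a*G, the edited form of a microRNA. With miR-376a*A, the unedited form, these probe sets lay nearer to the control level than with miR-376a*G, AP3M1 about midway. Not all of their other probe sets did so. The genes are 9 of the 19775 distinct gene symbols on the array: KIRREL1, WBP1L, AP3M1, CYB5R4, RIDA, CDC26, C10orf90, UBP1 and DEPP1. Every probe set whose platform annotation gave exactly 1 gene symbol, equal to one of these, was taken, which made 17 probe sets, and 14 of them passed a filter on low mean signal. The genes were chosen by their low signal with miR-376a*G on these same arrays, set against the other groups. Their signals and differences are therefore given as descriptions with no p-value, and counts of those past the threshold are not evidence for them.

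U87 is an established human glioblastoma line. The groups were cells given miR-376a*G, cells given miR-376a*A and cells given a control miRNA, each with 3 biological replicates and 1 array per replicate. All 9 cultures received 50 nM of a miRNA duplex with the lipid reagent Lipofectamine RNAiMAX and were harvested 24 h later, so no group was left untransfected. The duplexes were synthetic and added from outside, and RNA was measured at 1 time only. Arrays shared a trimmed mean signal of 100.01 and had medians between 18.0 and 20.4. Replicates of the control miRNA were the least even, with a spread of 0.166, 0.145 and 0.114 (SD of log2 deviations from the group mean) on replicates 1, 2 and 3, against 0.102 to 0.114 on the other 6 arrays. The mesenchymal markers VIM, CD44, FN1 and SPARC were bright on every array, with signals of at least 1015 (SPARC). The other glioma markers were dimmer, CHI3L1 at 98.02 to 152 and NES at 63.9 to 105, and the astrocyte marker GFAP was at 0.734 to 2.43. Markers of blood, endothelial, epithelial and neuronal cells peaked at signals of 1.62 (KRT19) to 22.3 (CD3E), except PECAM1 of endothelial cells, which read 41.3 to 87.3.

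A microRNA guides Argonaute proteins to messenger RNAs that pair with its seed, bases 2 to 8 from its 5′ end, and lowers their translation and stability. Adenosine deaminases that act on RNA turn adenosine into inosine, which is read as G, and a changed base within the seed changes which messengers can pair. Published work describes miR-376a*, now called miR-376a-5p, as edited in this way, with A for the unedited base and G for the edited one. The genomic sequences of the arm and of its neighbours are shown because their seeds are what editing can alter, with the seed in capitals (RefSeq, GRCh38.p14, plus strand).
miR-376a-5p, chr14:101040788-101040809: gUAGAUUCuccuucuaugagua
miR-376a-2-5p, chr14:101040080-101040100: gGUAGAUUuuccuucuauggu
miR-376a-3p, chr14:101040825-101040845: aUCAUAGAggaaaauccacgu
The seeds of miR-376a-5p and miR-376a-2-5p each belong to 1 mature human miRNA name in that table, while the seed of miR-376a-3p belongs to 2 (miR-376a-3p and miR-376b-3p). The arm miR-376a-3p is encoded at a second place as well, chr14:101040118-101040138. No source used here gives the transfected duplexes' sequences, so the edited one is not printed.

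Signals of all 9 genes were lowest with miR-376a*G on their brightest probe set, and on each of these the 3 miR-376a*G arrays lay below all 6 other arrays. Group means with miR-376a*G were 24.4% (KIRREL1) to 31.6% (RIDA) of the control mean. With miR-376a*A they were 63.3% (AP3M1) to 134% (DEPP1) of it. In bulk RNA, fewer cells of a kind and less RNA per cell cannot be told apart. Of the 14 tested member probe sets 11 were called lower with miR-376a*G than with the control miRNA (limma, adjusted p under 0.05), where 14.3% of all 32768 probe sets tested were called lower. Between the forms 10 of the 14 were called lower with miR-376a*G, against 10.2% of all probe sets. With miR-376a*A against the control miRNA 3 of the 14 were called lower, where 11.1% of all probe sets were. Since these arrays chose the genes, nothing is read from these counts, and both forms were set against the same 3 control arrays.

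**Figure D1:**
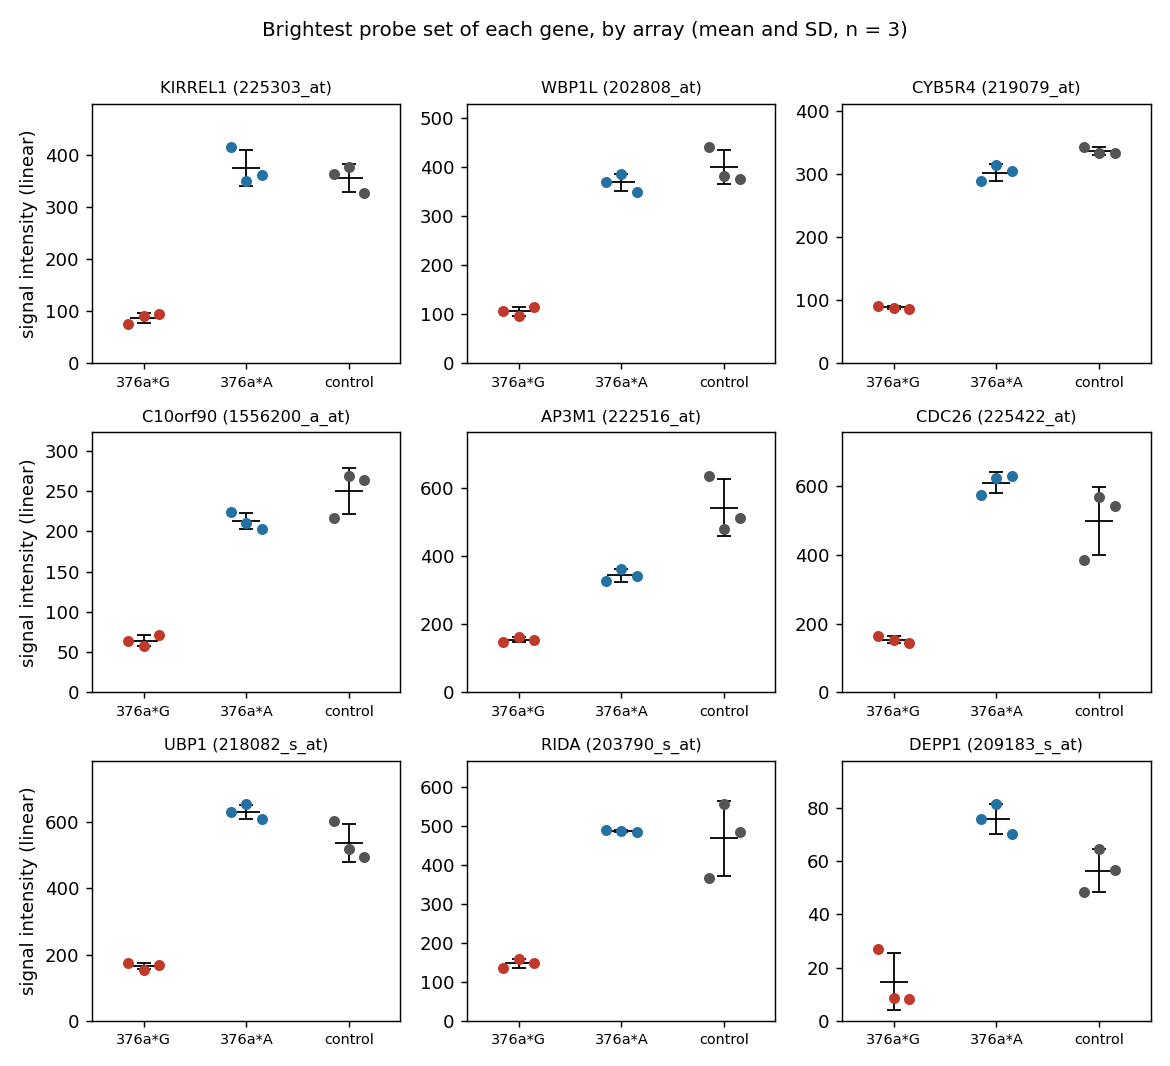
Linear signal intensity of the brightest probe set of each of the 9 genes on each array (points), with the mean and SD of 3 replicates (bars), for miR-376a*G, miR-376a*A and the control miRNA from left to right. The miR-376a*G points lie below all points of both other groups in every panel, and in the AP3M1 panel the miR-376a*A points lie midway, apart from both other groups.

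The genes of membrane adhesion and trafficking are taken first. KIRREL1 encodes NEPH1, an immunoglobulin-family adhesion protein that binds nephrin at the slit diaphragm of kidney podocytes. Its brightest probe set (225303_at) read 75.3, 90.7 and 94.6 with miR-376a*G, 415, 349 and 360.3 with miR-376a*A and 363, 377 and 326 with the control miRNA. The miR-376a*A and control arrays overlapped, and the miR-376a*G arrays lay far below both. The difference on the log2(signal + 16) scale was -1.85 ± 0.095 (SE) for miR-376a*G minus control, 3.62-fold lower, and 0.07 ± 0.095 for miR-376a*A minus control. Only 7 of the 32768 probe sets tested had a more negative difference. Fold values throughout come from such differences, with 16 added to each signal, and so run below plain signal ratios. On this probe set the mean signal with miR-376a*G was 24.4% of the control mean. A second, dim probe set (232467_at) read 10.8, 15.4 and 4.28 with miR-376a*G, 15.7, 13.8 and 9.49 with miR-376a*A and 17.4, 14.5 and 15.6 with the control miRNA. Its groups overlapped, and its difference for miR-376a*G minus control was -0.31 ± 0.149 (SE). Another (220825_s_at) was too dim to be tested and read 1.66, 6.65 and 7.13 with miR-376a*G, 14.2, 13.3 and 8.69 with miR-376a*A and 9.25, 12.4 and 13.4 with the control miRNA, again lowest with miR-376a*G and without overlap.

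WBP1L encodes a membrane-anchored protein that binds the WW domains of NEDD4-family ubiquitin ligases. Its only probe set (202808_at) read 107, 95.8 and 114 with miR-376a*G, 369.5, 385 and 349 with miR-376a*A and 440.2, 382 and 376.03 with the control miRNA. All 3 miR-376a*G arrays were low, and the miR-376a*A arrays overlapped with the control arrays. The log2 differences were -1.77 ± 0.085 (SE) for miR-376a*G minus control, 3.41-fold lower, and -0.11 ± 0.085 (SE) for miR-376a*A minus control.

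AP3M1 encodes the medium chain of the AP-3 adaptor, which sorts cargo from endosomes towards lysosomes and related organelles. Its brighter probe set (222516_at) read 147, 162 and 153 with miR-376a*G, 327, 364 and 341 with miR-376a*A and 637, 480.0 and 512 with the control miRNA. Here the 3 groups did not overlap at all, with miR-376a*A between the others. The miR-376a*G arrays were 3.27-fold lower than control (log2 difference -1.71 ± 0.096, SE) and the miR-376a*A arrays 1.54-fold lower (-0.63 ± 0.096). A second bright probe set (222517_at) read 177, 163 and 154 with miR-376a*G, 185, 227 and 199 with miR-376a*A and 295, 282 and 264 with the control miRNA, with the same order of groups and no overlap. Its differences were smaller, at -0.71 ± 0.087 (SE) for miR-376a*G and -0.44 ± 0.087 for miR-376a*A minus control, so the size of the miR-376a*G difference rests on the first probe set. Between the forms they were -1.08 ± 0.096 and -0.28 ± 0.087 (SE, miR-376a*G minus miR-376a*A) on the first and second probe set. AP3M1 was thus low with both forms and lower with miR-376a*G.

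The metabolic members are a pair of enzymes. CYB5R4 encodes NCB5OR, a reductase of the endoplasmic reticulum that joins a cytochrome b5 domain to a reductase domain. Its brighter probe set (219079_at) had the smallest SE of the 14 and read 91.8, 88.6 and 86.1 with miR-376a*G, 289, 315 and 305 with miR-376a*A and 343, 334 and 333 with the control miRNA. No groups overlapped, although the miR-376a*A mean stayed at 89.9% of the control mean. The log2 differences were -1.75 ± 0.068 (SE) for miR-376a*G, 3.36-fold lower, and -0.15 ± 0.068 (SE) for miR-376a*A, both minus control. A dimmer probe set (240020_at) read 19.9, 18.9 and 17.5 with miR-376a*G, 21.3, 28.2 and 24.7 with miR-376a*A and 33.2, 43.5 and 37.7 with the control miRNA. On it the 3 groups kept the same order without overlap, but miR-376a*A was closer to miR-376a*G: the log2 differences were -0.64 ± 0.104 (SE) for miR-376a*G minus control, -0.41 ± 0.104 for miR-376a*A minus control and -0.23 ± 0.104 for miR-376a*G minus miR-376a*A.

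RIDA encodes an imine deaminase that clears reactive intermediates released by enzymes dependent on pyridoxal phosphate. Its bright probe set (203790_s_at) read 136, 158 and 149.7 with miR-376a*G, 491, 487 and 483 with miR-376a*A and 366, 555 and 483 with the control miRNA. The miR-376a*A arrays were nearly equal and lay within the wide control range. For miR-376a*G minus control the log2 difference was -1.55 ± 0.118 (SE), 2.92-fold lower, and 0.08 ± 0.118 for miR-376a*A minus control. Dropping control array 1, the lowest of its group, gave -1.71 and -0.09. A dim probe set (231705_at) was not tested and read 1.47, 2.10 and 2.29 with miR-376a*G, 8.24, 13.8 and 4.39 with miR-376a*A and 13.4, 16.8 and 10.8 with the control miRNA, with miR-376a*G below both other groups.

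**Figure D2:**
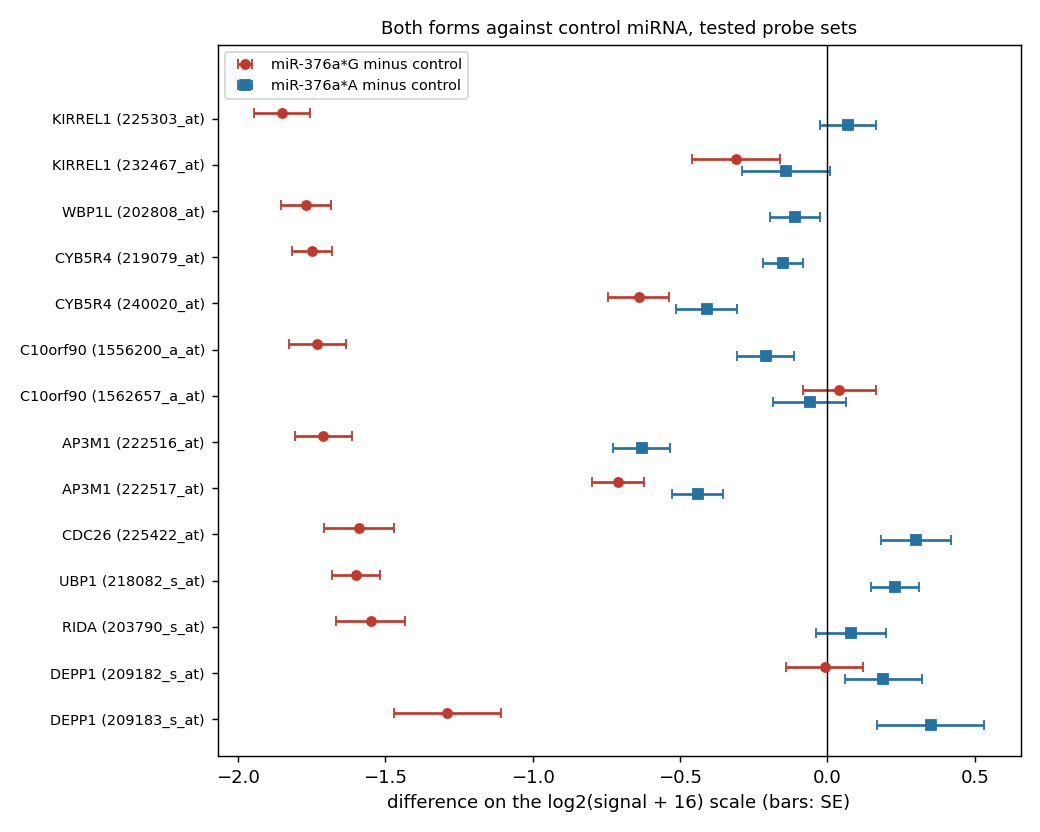
Differences of miR-376a*G (circles) and miR-376a*A (squares) minus control miRNA on the log2(signal + 16) scale for the 14 tested probe sets, with SE bars, and with the same 3 control arrays in both. The brightest probe sets lie at -1.29 to -1.85 with miR-376a*G, while with miR-376a*A they lie between -0.63 (AP3M1) and 0.35 (DEPP1).

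CDC26 encodes a small subunit of the anaphase-promoting complex, the ubiquitin ligase that drives exit from mitosis, and stabilises its subunit CDC16. Its only probe set (225422_at) read 164, 153 and 143 with miR-376a*G, 576, 625 and 631 with miR-376a*A and 386, 568 and 543 with the control miRNA. The miR-376a*A arrays were the highest and did not overlap with either other group. The log2 differences were -1.59 ± 0.118 (SE) for miR-376a*G minus control, 3-fold lower, and 0.30 ± 0.118 (SE) for miR-376a*A minus control. Control array 1 was the lowest of the 3, and dropping it gave -1.76 and 0.13.

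C10orf90, also called FATS, encodes a protein reported to stabilise p53 and the cell cycle inhibitor p21. The bright probe set (1556200_a_at) read 63.98, 56.8 and 71.0 with miR-376a*G, 224, 211 and 204 with miR-376a*A and 217, 269 and 264 with the control miRNA. The miR-376a*G arrays were low and the miR-376a*A arrays overlapped with the control arrays. For miR-376a*G minus control the log2 difference was -1.73 ± 0.096 (SE), 3.32-fold lower, and -0.21 ± 0.096 for miR-376a*A minus control. Both other probe sets of the gene were dim and did not show this. The first (1562657_a_at) read 17.5, 22.7 and 19.6 with miR-376a*G, 22.0, 18.9 and 12.4 with miR-376a*A and 17.1, 17.1 and 22.8 with the control miRNA, with overlapping groups and differences of 0.04 ± 0.125 (SE) for miR-376a*G and -0.06 ± 0.125 for miR-376a*A minus control. The second (1564198_a_at) was not tested, read 6.04, 1.52 and 4.58 with miR-376a*G, 3.12, 13.4 and 12.8 with miR-376a*A and 1.68, 6.43 and 8.79 with the control miRNA and also overlapped. The low miR-376a*G signal of this gene therefore rests on 1 probe set.

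UBP1 encodes a transcription factor of the CP2 family. Its probe set (218082_s_at), of a type that can match several transcripts, read 174, 154 and 169.5 with miR-376a*G, 631, 654 and 609.7 with miR-376a*A and 602, 517 and 494 with the control miRNA. The miR-376a*A arrays lay just above the control arrays without overlap. The log2 differences were -1.60 ± 0.082 (SE) for miR-376a*G minus control, 3.04-fold lower, and 0.23 ± 0.082 for miR-376a*A minus control. Probe sets 203790_s_at of RIDA, 209183_s_at and 209182_s_at of DEPP1 and 220825_s_at of KIRREL1 are of the same type.

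DEPP1 is a gene induced by FOXO transcription factors and linked to autophagy. Its brightest probe set (209183_s_at) read 27.1, 8.77 and 8.29 with miR-376a*G, 75.9, 81.4 and 70.3 with miR-376a*A and 48.3, 64.5 and 56.7 with the control miRNA. The miR-376a*G arrays were the lowest and the miR-376a*A arrays the highest, with no overlap between any groups. On the log2(signal + 16) scale the difference was -1.29 ± 0.181 (SE) for miR-376a*G minus control and 0.35 ± 0.181 for miR-376a*A minus control. Replicate 1 of miR-376a*G stood above the other miR-376a*G arrays, and without it the miR-376a*G difference was -1.56. The value also depended on the constant added before the logarithm, at -2.06 with 1 and -0.62 with 64. The other probe set (209182_s_at) was near the filter limit and read 10.4, 16.6 and 18.1 with miR-376a*G, 25.1, 17.9 and 15.6 with miR-376a*A and 13.9, 17.6 and 13.8 with the control miRNA. Its groups overlapped, with a difference of -0.01 ± 0.130 (SE) for miR-376a*G minus control.

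**Figure D3:**
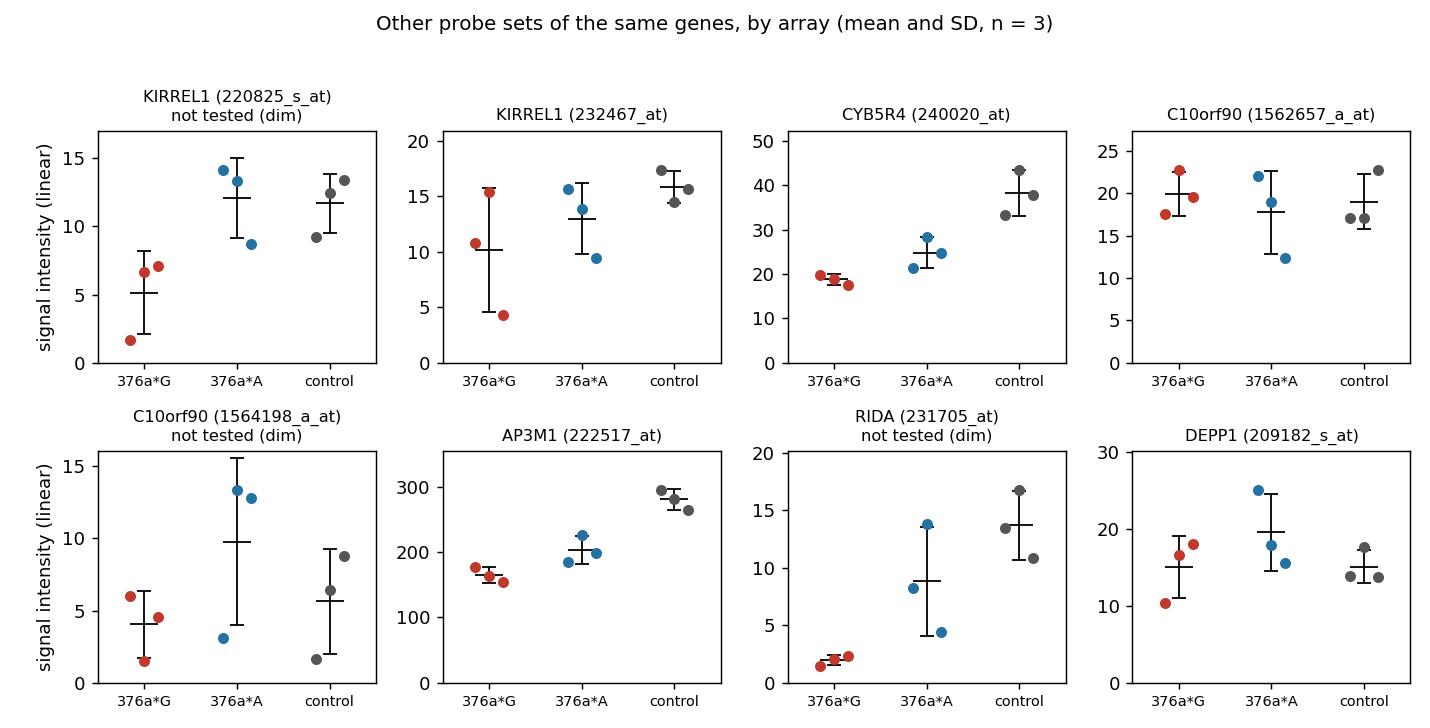
Linear signal intensity of the 8 other probe sets of the same genes on each array (points), with the mean and SD of 3 replicates (bars). Without overlap with the control, miR-376a*G was lower on 4 of them (KIRREL1 220825_s_at, CYB5R4 240020_at, AP3M1 222517_at and RIDA 231705_at), while the other 4 overlapped.

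Across all 17 probe sets, miR-376a*G was below every array of both other groups on 13. Among all probe sets tested, the 3 miR-376a*G arrays lay below the 3 control arrays in 21.2% and below the 3 miR-376a*A arrays in 23.0%. These shares are for each pair of groups apart and leave out the untested probe sets. The share below both groups at once is not given here, and since these arrays chose the genes, nothing is read from the 13. The 9 genes are a selection from a larger set with this pattern. With limits chosen after the values were seen, 95 tested probe sets (71 genes with a single symbol) were at least 2-fold lower with miR-376a*G than with both miR-376a*A and control and did not overlap with either. On 73 of the 95 the miR-376a*A mean was within 1.2-fold of control, which held for 6 of the 9 brightest member probe sets and not for AP3M1, CDC26 or DEPP1. With miR-376a*A against control, 4 of the 14 tested member probe sets (both of CYB5R4 and both of AP3M1) were lower without overlap and 3 (CDC26, UBP1 and DEPP1) higher, where 17.7% and 19.0% of all probe sets tested were. Over the 9 arrays, the centred log2 signal of each brightest probe set had a Pearson r of 0.898 (AP3M1) to 0.995 (CYB5R4) with the mean of the other 8, a description over arrays that fall into 3 low and 6 high ones. Ranked the same way against the mean of all 9 members, the closest of 13688 other genes were NLRC5, GPR157, ABL1, PCCB, JMJD6 and URI1, with r between 0.995 and 0.996 over 9 arrays. They differed by -0.78 (URI1) to -1.92 (ABL1) on the log2 scale for miR-376a*G minus control, and by -0.03 to 0.03 for miR-376a*A minus control.

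By position, 4 of the 9 genes (WBP1L, C10orf90, AP3M1 and DEPP1) are on chromosome 10, which holds 3.94% of the 19734 array genes with a RefSeq chromosome. The chromosomes of the other genes with this pattern were not counted, and an excess was not tested. KIRREL1 is on chromosome 1, UBP1 on 3, CYB5R4 on 6, RIDA on 8 and CDC26 on 9, and all 9 are protein-coding genes. As DEPP1 is a known FOXO-induced gene, the FOXO core motif TGTTTAC was searched on both strands (read as GTAAACA on the other) in the 250 bases before each gene start in RefSeq (GRCh38.p14). Among 35116 such windows 2.98% held it. Of 8 windows of 7 members, 2 held it: that of DEPP1 at base -180 and that of C10orf90 at bases -155 and -77 (first base of the match, counted back from the gene start). These windows are shown with the matches in capitals, both on the minus strand.
DEPP1, chr10:44978810-44979059: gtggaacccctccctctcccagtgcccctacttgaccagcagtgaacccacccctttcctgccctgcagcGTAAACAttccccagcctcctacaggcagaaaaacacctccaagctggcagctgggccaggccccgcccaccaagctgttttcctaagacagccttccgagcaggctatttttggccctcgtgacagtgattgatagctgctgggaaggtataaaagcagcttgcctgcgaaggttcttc
C10orf90, chr10:126521442-126521691: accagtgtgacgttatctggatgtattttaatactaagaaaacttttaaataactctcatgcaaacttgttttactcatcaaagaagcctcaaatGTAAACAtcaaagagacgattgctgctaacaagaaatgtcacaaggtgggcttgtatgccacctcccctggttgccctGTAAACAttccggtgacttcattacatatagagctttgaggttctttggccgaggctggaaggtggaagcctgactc
A match of letters is not a binding site, and the windows of UBP1, CYB5R4, CDC26, AP3M1 and WBP1L (a pair of starts) had none. The share of G and C was 41.6% in the C10orf90 window and 57.2% in that of DEPP1, against a median of 58.0% over all windows. The motif was chosen because of DEPP1, and no excess of matches was tested.

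Partners and relatives of the members, listed by their function with earlier results of these data known, were examined next. Of 91 genes in 9 lists, 79 had a tested probe set, and each gene was read from its brightest one. With miR-376a*G against control 11 of the 79 rose and 19 fell, where 11.5% and 14.3% of all probe sets were called higher and lower. The median difference over the 79 was 0.01 (log2), against -0.017 over all probe sets. With miR-376a*A against control 6 rose and 15 fell, where 10.3% and 11.1% of all probe sets were called higher and lower (median -0.03, against 0.02), and these 21 calls became 13 and 12 when miR-376a*A array 2 or 3 was dropped. Between the forms 10 were higher and 10 lower with miR-376a*G than with miR-376a*A, where 7.95% and 10.2% of all probe sets were (median 0.02, against -0.029). The shares of all probe sets include dim ones, so they are not a like measure for genes read from their brightest probe set. With the filter at the 60th percentile, 3593 and 4342 of 21845 probe sets were called higher and lower with miR-376a*G against control. Of the 69 related genes tested under that filter, 11 were called higher and 19 lower.

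The AP-3 complex of AP3M1 had further low subunits. AP3B1, the large beta subunit, read 187, 189 and 196 with miR-376a*G, 284, 351 and 335 with miR-376a*A and 474, 381 and 381 with the control miRNA. It fell 2.06-fold with miR-376a*G against control (log2 difference -1.04 ± 0.098, SE, adjusted p = 8.32e-06), and its other probe set gave -0.95. It was also lower with miR-376a*G than with miR-376a*A (-0.71 ± 0.098, adjusted p = 0.000239). With miR-376a*A against control its difference was -0.33 ± 0.098 (adjusted p = 0.0284), which did not pass under 6 alternatives (adjusted p 0.0502 to 0.123), among them dropping miR-376a*A array 1, miR-376a*A array 3 or control array 1 and using the replicate number as a block. AP3D1, the large delta subunit, read 631, 603 and 608 with miR-376a*G, 904, 892 and 898 with miR-376a*A and 839.6, 996 and 908 with the control miRNA. It fell 1.47-fold with miR-376a*G against control (-0.56 ± 0.067, adjusted p = 6.54e-05) and was lower with miR-376a*G than with miR-376a*A (-0.54 ± 0.067, adjusted p = 0.000113), and with miR-376a*A against control it stood at -0.02 ± 0.067 and did not pass. All 3 tested probe sets of AP3D1 and both of AP3B1 had the same sign with miR-376a*G against control. The small chain gene AP3S1 stood at 0.06 ± 0.066 with miR-376a*G against control (adjusted p = 0.564), and AP3M2, the paralogue of AP3M1, at -0.27 ± 0.120 (adjusted p = 0.119). AP3M2 fell with miR-376a*A against control (-0.52 ± 0.120, adjusted p = 0.00847), while its other probe set gave 0.01. The neuronal subunit AP3B2 was lower with miR-376a*G than with miR-376a*A (-0.58 ± 0.117, adjusted p = 0.00414) at dim signals of 13.7 to 36.0. Against control it stood at -0.22 ± 0.117 with miR-376a*G (adjusted p = 0.204) and 0.36 ± 0.117 with miR-376a*A (adjusted p = 0.0443), the last a call lost under 12 alternatives (0.0534 to 0.143), among them dropping any miR-376a*A or control array or miR-376a*G array 2, and the replicate block (0.0598). Of the 10 tested genes of this list, which adds the medium chains of other adaptors, 3 fell and 0 rose with miR-376a*G against control (5 and 1 at an unadjusted p under 0.05, median -0.21), 4 fell and 2 rose with miR-376a*A against control (median -0.07), and 3 were lower and 0 higher with miR-376a*G than with miR-376a*A (median -0.06). AP1M1 fell slightly with miR-376a*G and miR-376a*A against control (-0.19 ± 0.060 and -0.24 ± 0.060), but its miR-376a*G call (adjusted p = 0.0382) was lost under 11 alternatives (0.0512 to 0.123), among them dropping any array except control arrays 1 and 3, and the replicate block (0.0602). Its miR-376a*A call (adjusted p = 0.0131) was lost when miR-376a*A array 1 (0.0528) or 3 (0.0519) was dropped.

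Among the WW-domain proteins and NEDD4-family ligases related to WBP1L, 5 of 10 tested genes fell and 1 rose with miR-376a*G against control (median -0.30), and 5 fell and 0 rose with miR-376a*A (median -0.27). NEDD4, the ligase that gives the family its name, read 146, 152 and 153 with miR-376a*G, 305, 296 and 282 with miR-376a*A and 464, 333 and 354 with the control miRNA. The 3 groups did not overlap. It fell 2.38-fold with miR-376a*G against control (-1.25 ± 0.103, adjusted p = 2.61e-06) and was 1.86-fold lower with miR-376a*G than with miR-376a*A (adjusted p = 5.1e-05). With miR-376a*A against control its difference was -0.35 ± 0.103 (adjusted p = 0.0282), a call lost when any miR-376a*A array was dropped, without the filter and with only these groups fitted (0.0567 to 0.0983). WBP2, another WW-domain binding protein, fell 1.52-fold with miR-376a*G against control (-0.60 ± 0.094, adjusted p = 0.000485). It was also lower with miR-376a*G than with miR-376a*A (-0.38 ± 0.094, adjusted p = 0.0141), which was lost when miR-376a*A array 1, miR-376a*G array 2 or miR-376a*G array 3 was dropped (0.0518 to 0.0659). NDFIP1, an adaptor of these ligases, fell with both forms against control (-0.46 ± 0.081 with miR-376a*G and -0.44 ± 0.081 with miR-376a*A, adjusted p = 0.00117 and 0.00198). The ligase gene WWP2 fell with both as well (-0.40 ± 0.076 with miR-376a*G and -0.48 ± 0.076 with miR-376a*A, adjusted p = 0.00198 and 0.000693), while its other probe sets gave -0.24 and 0.09 with miR-376a*G and -0.41 and 0.06 with miR-376a*A. WWP1 stood at -0.23 ± 0.091 with miR-376a*G (adjusted p = 0.0783) and fell with miR-376a*A (-0.35 ± 0.091, adjusted p = 0.0166), a call that missed the threshold when miR-376a*A array 2 (0.065) or 3 (0.0573) was dropped. SMURF2 was higher with miR-376a*G than with miR-376a*A (0.38 ± 0.063, adjusted p = 0.00112). Against control it stood at 0.21 ± 0.063 with miR-376a*G (adjusted p = 0.0255, lost when any miR-376a*G array or control array 2 or 3 was dropped, 0.0511 to 0.0907) and -0.16 ± 0.063 with miR-376a*A (adjusted p = 0.0861). Between the forms 3 genes of this list were higher and 2 lower with miR-376a*G.

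**Figure D4:**
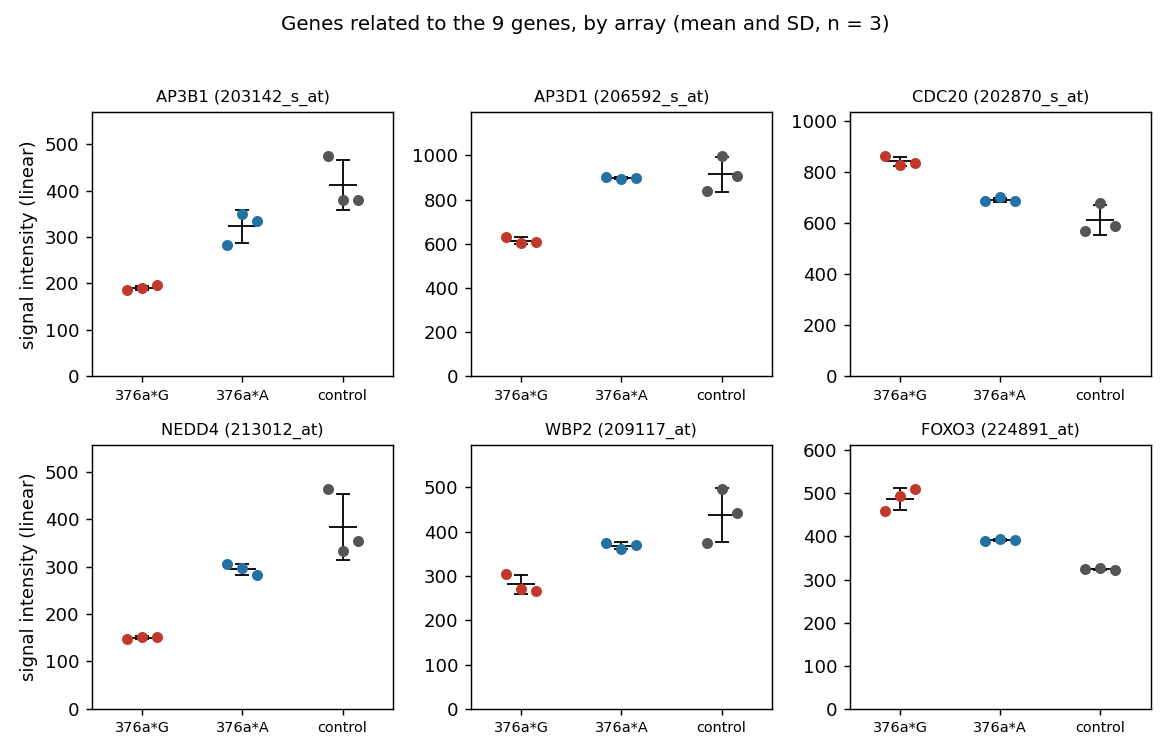
Linear signal intensity of 6 genes related to the members on each array (points), with the mean and SD of 3 replicates (bars). AP3B1, AP3D1, NEDD4 and WBP2 are lowest and CDC20 and FOXO3 highest with miR-376a*G, and in each panel the miR-376a*G points do not overlap with the miR-376a*A or the control points.

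Other genes of the anaphase-promoting complex moved in both directions with miR-376a*G. Of 17 tested subunits, activators and partners, 6 rose and 3 fell with miR-376a*G against control (median 0.20), 1 rose and 1 fell with miR-376a*A (median 0.12), and 2 were higher and 0 lower with miR-376a*G than with miR-376a*A. The subunit gene ANAPC13 rose with miR-376a*G (1.48-fold, adjusted p = 2.67e-05) and with miR-376a*A (1.39-fold, adjusted p = 0.000154) against control. CDC20, an activator of the complex, read 861, 829 and 835 with miR-376a*G, 686, 701 and 685 with miR-376a*A and 571, 679 and 587 with the control miRNA, and rose 1.37-fold with miR-376a*G against control (adjusted p = 0.000469). Its difference between the forms (0.28 ± 0.070, miR-376a*G minus miR-376a*A, adjusted p = 0.0144) missed the threshold when miR-376a*A array 3 (0.0522) or miR-376a*G array 1 (0.0532) was dropped. FBXO5, an inhibitor of the complex, rose 1.34-fold with miR-376a*G against control (adjusted p = 0.000245) and was 1.24-fold higher with miR-376a*G than with miR-376a*A (adjusted p = 0.00318). CDC23 fell with both forms against control (-0.34 ± 0.083 with miR-376a*G and -0.41 ± 0.083 with miR-376a*A, adjusted p = 0.0087 and 0.00369), but its other probe set gave 1.14 with miR-376a*G and 0.86 with miR-376a*A, so its direction is not settled.

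In the list around C10orf90, CDKN1A, the gene of p21, read 579, 516 and 537 with miR-376a*G, 724, 719 and 714 with miR-376a*A and 705, 750.2 and 718 with the control miRNA. It fell 1.32-fold with miR-376a*G against control (adjusted p = 0.000503) and was lower with miR-376a*G than with miR-376a*A (-0.39 ± 0.063, adjusted p = 0.000766), and with miR-376a*A against control it stood at -0.01 ± 0.063. MDM2, the ubiquitin ligase that limits p53, rose 1.6-fold with miR-376a*G against control (adjusted p = 6.84e-05) and was 1.73-fold higher with miR-376a*G than with miR-376a*A (adjusted p = 2.25e-05). Its 6 other tested probe sets ranged from -0.32 to 1.06 with miR-376a*G against control, 3 of them with the same sign, and from -0.03 to 0.90 between the forms. CEP295, which shares a motif with C10orf90, rose with miR-376a*G (0.33 ± 0.092, adjusted p = 0.0189), and stood at 0.26 ± 0.092 with miR-376a*A (adjusted p = 0.0647), although both its other probe sets were negative with miR-376a*G (-0.36 and -0.16) and the call was lost when miR-376a*G array 1, miR-376a*G array 2 or control array 3 was dropped (0.0584 to 0.0808). ALMS1 stood at 0.24 ± 0.089 with miR-376a*G (adjusted p = 0.066) and rose with miR-376a*A (0.32 ± 0.089, adjusted p = 0.0231, other probe sets -0.04 and 0.08), which was lost when miR-376a*A array 3, control array 2 or control array 3 was dropped or only these groups were fitted (0.0509 to 0.113). Of the 5 tested genes 2 rose and 1 fell with miR-376a*G and 1 rose with miR-376a*A against control, and 1 was higher and 1 lower with miR-376a*G than with miR-376a*A.

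FOXO factors and FOXO-induced genes, related to DEPP1, moved in both directions. Of 16 tested genes 2 rose and 5 fell with miR-376a*G against control (median -0.13), 2 rose and 2 fell with miR-376a*A (median -0.05), and 2 were higher and 4 lower with miR-376a*G than with miR-376a*A (median -0.05). FOXO3, a FOXO transcription factor, read 460.0, 493 and 509.9 with miR-376a*G, 389, 394 and 391 with miR-376a*A and 324, 326 and 323 with the control miRNA, with no overlap between groups. It rose 1.48-fold with miR-376a*G (adjusted p = 3.7e-05) and 1.2-fold with miR-376a*A (adjusted p = 0.0113) against control, and was higher with miR-376a*G than with miR-376a*A (0.30 ± 0.063, adjusted p = 0.00481). BCL6, a transcriptional repressor, fell 1.58-fold and CAT, the catalase gene, 1.43-fold with miR-376a*G against control (adjusted p = 4.18e-05 and 8.88e-05), while the other probe sets of BCL6 gave -0.62 and 0.05. Both were also lower with miR-376a*G than with miR-376a*A (-0.45 ± 0.076 and -0.40 ± 0.064, adjusted p = 0.00117 and 0.000722). GADD45A rose with both forms against control (0.51 ± 0.082 with miR-376a*G and 0.35 ± 0.082 with miR-376a*A, adjusted p = 0.000583 and 0.00826), and its difference between the forms did not pass (0.16 ± 0.082, adjusted p = 0.207). SESN3 fell with miR-376a*A (-0.53 ± 0.128, adjusted p = 0.0107), and missed the threshold (0.0523) when miR-376a*A array 2 was dropped, and it stood at -0.15 ± 0.128 with miR-376a*G (adjusted p = 0.438).

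The remaining lists held few calls. None of the 3 tested CP2 and grainyhead relatives of UBP1 passed in any comparison by limma (at an unadjusted p under 0.05, 1 was higher with miR-376a*G than with miR-376a*A), and the paralogue TFCP2 stood at 0.06 ± 0.079 (SE) with miR-376a*G and 0.01 ± 0.079 with miR-376a*A against control, with its other probe sets at -0.21 to -0.11. Among 9 cytochrome b5 and reductase genes 2 fell with miR-376a*G and 1 with miR-376a*A against control, and 0 differed between the forms, also at an unadjusted p under 0.05. POR, the cytochrome P450 reductase gene, fell with both (-0.30 ± 0.083 with miR-376a*G and -0.36 ± 0.083 with miR-376a*A, adjusted p = 0.0174 and 0.00895), and its miR-376a*G call was lost when miR-376a*G array 2, miR-376a*G array 3 or control array 3 was dropped (0.0546 to 0.0741). CYB5D1 fell with miR-376a*G (-0.24 ± 0.080, adjusted p = 0.0412), which was lost under 13 alternatives (0.0552 to 0.157), among them dropping any miR-376a*G array, miR-376a*A array 2 or 3 or control array 1 or 3, and the replicate block (0.0599). In the list related to RIDA, CTH, which makes cysteine from cystathionine, was 1.71-fold higher with miR-376a*G than with miR-376a*A (adjusted p = 0.000302) and fell with miR-376a*A against control (-0.60 ± 0.109, adjusted p = 0.00193), and both other tested genes passed in none of the comparisons. Of the slit diaphragm genes related to KIRREL1, 6 of 10 were tested and none passed with miR-376a*G against control by limma, with 1 lower at an unadjusted p under 0.05. CD2AP, an adaptor of that complex, fell with miR-376a*A against control (-0.86 ± 0.181, adjusted p = 0.00476) and was higher with miR-376a*G than with miR-376a*A (0.65 ± 0.181, adjusted p = 0.0247), while its other probe set gave -0.17 and 0.03. The call between the forms was lost when any miR-376a*A array or miR-376a*G array 2 or 3 was dropped and without the filter (0.0518 to 0.0975), and the control signals of CD2AP were uneven, at 561, 291 and 442.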

How the data were processed

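RNA of U87 cells, 3 groups of 3 biological replicates, was hybridised to Affymetrix arrays, per the labels. The authors deposited linear probe-set signal intensities. The submitters' processing notes name GCOS 1.4.0.036, and no source used here states its role, the signal algorithm or detection calls. Each array's 2% trimmed mean signal was 100.009 to 100.011, so a change common to all transcripts would not be visible.

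The 62 control probe sets of 54675 were dropped. Signals entered as log2(signal + 16) with no further scaling, and fold values therefore run low, most of all for dim genes. Probe sets whose mean log2 value reached the 40th percentile (4.771, or a signal of 11.3) numbered 32768, and each was tested apart with limma 3.58.1 in R 4.3.3 (eBayes, intensity trend), using the 9 arrays together with 6 residual degrees of freedom. Tests were two-sided, adjusted by Benjamini-Hochberg over all probe sets, with a threshold of 0.05. The number of arrays limits the precision. Symbols come from the platform annotation, and all 9 matched RefSeq. The members and gene lists were chosen with earlier results of these data known. From each related list and comparison up to 3 called genes of smallest adjusted p were named, with the 6 genes most like the members. AP3S1, TFCP2 and values of named genes in further comparisons were added after their values were seen. The fit was tested on simulated data with 200 changed probe sets, far fewer than were called in the data. Each simulated comparison used the same mean and spread for each probe set, and changes were added on the log2(signal + 16) scale. The rates that follow differ between comparisons only by the random draw. They are not the shares of changes found or of false calls in these data. For miR-376a*G minus control, miR-376a*A minus control and miR-376a*G minus miR-376a*A, 66%, 49% and 60% of 1.5-fold changes were called. Of 2-fold changes 87%, 86% and 89% were called, and 6.71%, 4.26% and 3.87% of calls were false. A difference that did not pass is therefore not evidence of no change. Alternatives covered scaling, filter, offset, variance trend, arrays in the fit, probe set rule, replicate block and each replicate left out. Figures were drawn with matplotlib 3.10.9 in Python 3.11.15.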

Additional observations from a re-analysis of the deposited data

How the results depend on the processing

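The counts of called probe sets, member probe sets and related genes kept within 1.5 times its value under each alternative, except when some arrays were left out, and none of the 1694 values of single probe sets under alternatives changed the sign of a call. Leaving out each replicate in turn gave 3827 (without miR-376a*G replicate 2) to 8421 (without control miRNA replicate 1) called probe sets for miR-376a*G minus miR-376a*A, against 5942 with all arrays, and 12 (without miR-376a*A replicate 3) to 27 (without control miRNA replicate 2) related genes called for miR-376a*A minus control, against 21. Without miR-376a*A replicate 2 the last count was 13. With every array centred on its median, the calls were split differently: for miR-376a*G minus miR-376a*A 3677 higher and 2407 lower, against 2604 and 3338, and for miR-376a*A minus control 2634 and 4343, against 3360 and 3628.

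The replicate number as a block gave 11, 3 and 9 member probe sets called lower for miR-376a*G minus control, miR-376a*A minus control and miR-376a*G minus miR-376a*A, 7952, 6430 and 5397 probe sets called and 27, 16 and 19 related genes called. The members were chosen from these arrays, so nothing is read from how steady their counts were. Among named genes the replicate block ended the calls of AP1M1 and CYB5D1 (miR-376a*G minus control) and of AP3B1 and AP3B2 (miR-376a*A minus control) and no other. Same-numbered arrays of different groups had deviations correlated between -0.1 and 0.06, and other pairs between -0.13 and 0.13. No effect shared by same-numbered arrays was thus seen in the signals. Whether same-numbered cultures were handled together is not stated in the labels and cannot be told from these values. The alternatives for single related genes were chosen after seeing the data. Signals near the filter limit have no detection call, which limits the dim probe sets of KIRREL1, C10orf90, RIDA and DEPP1.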
